A study of Equus caballus with 23 samples.

Results

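ANKRD1, XIRP1, ATF3, BTG2 and SDC4 are 5 genes of the acute stress and repair response of muscle, listed for their very high level in 1 muscle library of Arabian horses in race training. They were found by symbol in the authors' deposited tables, each with 1 identifier, and make up 5 of the 26991 genes of the count table and 5 of the 11545 genes that passed the filter on low counts. The choice rested on the level in library m6, so all values of m6 are given as a description, and the main tests were run on the other 22 libraries. Fits, correlations and outlier values that include m6 are given beside them, also as a description. Total RNA came from gluteus medius (rump muscle) taken with a biopsy needle. The T0 group is 5 libraries from untrained animals, at an age of 2.5 years, 3 from males and 2 from females. The T1 group is 8 libraries from the end of intense gallop work, before flat races began, at 3 years (4 male and 4 female, with m6 female). The T2 group is 10 libraries from the end of the racing season, also at 3 years (7 male and 3 female). Neither repeat sampling of an animal nor the time between exercise and biopsy is stated in the labels, so p-values measure only the spread between these libraries. Age and training status cannot be told apart in comparisons with T0.

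The 5 genes act at different places in a muscle fibre. ANKRD1 encodes a cardiac ankyrin repeat protein that binds titin in the sarcomere and also enters the nucleus, and XIRP1 encodes Xin, an actin-binding protein of attachment sites that gathers at damaged regions of muscle fibres. ATF3 is a basic leucine zipper transcription factor made quickly under many kinds of stress. BTG2 is an antiproliferative protein of the BTG/TOB family that is induced by p53 and promotes mRNA deadenylation. SDC4 is syndecan-4, a heparan sulfate proteoglycan that spans the plasma membrane at focal adhesions.

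Library m6 had 21140746 counts in total, inside the range of 15417737 to 23641809 of all T1 libraries. T0 libraries ranged from 12604125 to 17477172 and T2 libraries from 12185608 to 19804694. Mitochondrially encoded genes took 44.7% of its counts, against 50.6% to 56.7% in the other 7 T1 libraries and 35.99% to 56.7% in all other 22 libraries. Of 12 marker lists, 9 had genes with a symbol, and the summed CPM (the gene's share of the library's counts, on the usual CPM scale, with library sizes scaled by TMM) of each of the 9 in m6 lay inside the range of the other 22 libraries. Slow fibre markers (8 of 8 found) summed to 38230 CPM in m6, against 30390 to 136600 in the other T1, 8530 to 32830 in T0 and 10320 to 42880 in T2 libraries. Fast fibre markers (8 of 8) summed to 53060 CPM in m6, against 1653 to 53820 in the other T1, 48990 to 103600 in T0 and 48430 to 116000 in T2 libraries, so defining markers of skeletal muscle were present. Fibroblast markers (5 of 6) summed to 164 CPM in m6, above the 64.5 to 128 of the other T1 libraries but inside the 89.5 to 383 of T0. Macrophage markers (3 of 6) summed to 5.92 CPM in m6, against 3.10 to 6.83 in the other T1 libraries, and no marker found was at 0 in m6. Neutrophil, erythroid and skin markers had no identifier with a symbol and were not analysed here. In whole muscle RNA, fewer cells of a type and less RNA per cell cannot be told apart.

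ANKRD1 (ENSECAG00000016983, chromosome 1, 37673788 to 37681932 in the authors' tables; genome build not given in the sources used here) had 1761 CPM in m6 from 39836 counts. In T0 it had 16.95 CPM in m8, 39.6 in m9, 39.4 in m10, 73.8 in m12 and 63.8 in m13. The other 7 T1 libraries ran from 35.5 CPM (m3) over a median of 105.7 to 159.6 (m2), and T2 libraries from 27.1 (m14) over a median of 37.9 to 174.9 (m20). Library m6 was thus 37.9 times the median of the other 22 and 10.1 times the next highest, and it held 73.8% of the summed CPM of T1.

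XIRP1 (ENSECAG00000004725, chromosome 16, 46157593 to 46160949) had 2110 CPM in m6 from 47740 counts. T0 libraries had 56.2 CPM in m8, 70.2 in m9, 53.9 in m10, 90.6 in m12 and 100.9 in m13. The other T1 libraries spread from 75.1 (m1) over a median of 121.3 to 173.6 CPM (m5). T2 libraries spread from 24.4 (m17) over a median of 60.2 to 293.5 CPM (m15). The level in m6 was 28.8 times the median of the other 22 libraries and 7.19 times that in m15.

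ATF3 (ENSECAG00000011486, chromosome 5, 26065349 to 26077751) reached 260.9 CPM in m6 from 5903 counts. It had 0.860 CPM in m8, 1.62 in m9, 2.58 in m10, 7.95 in m12 and 6.07 in m13 of T0, from 21 to 108 counts. The other T1 libraries held 2.77 (m1) to 21.3 CPM (m5) with a median of 7.50, and T2 libraries 1.33 (m18) to 21.6 CPM (m15) with a median of 4.76. The ratio of m6 to the median of the other 22 was 49.1, and to the next highest library 12.1. Outside m6, ATF3 also varied most of the 5 in fold terms, by 25.1 times between its lowest and highest library.

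BTG2 (ENSECAG00000017203, chromosome 5, 74951 to 78919) had the widest gap. It stood at 186.6 CPM in m6 from 4221 counts, 62.7 times the median of the other 22 libraries and 15.5 times the next highest, m15. In T0 it had 1.07 CPM in m8, 1.43 in m9, 2.79 in m10, 5.30 in m12 and 9.34 in m13. Among the other T1 libraries it had 1.59 (m1) to 10.3 CPM (m11) with a median of 2.97, and among T2 libraries 1.001 (m21) to 12.1 CPM (m15) with a median of 3.20. The 3 time points therefore overlapped almost fully once m6 was set aside, and m6 held 87.3% of the summed CPM of T1.

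SDC4 (ENSECAG00000020374, chromosome 22, 34398667 to 34404356) had the smallest gap. It had 58.5 CPM in m6 from 1324 counts, 12.8 times the median of the other 22 libraries and 3.97 times the next highest, m21. In T0 it had 2.21 CPM in m8, 1.95 in m9, 3.10 in m10, 2.23 in m12 and 3.66 in m13. The other T1 libraries ran from 3.79 (m1) over a median of 6.39 to 12.3 CPM (m11), all above the 5 T0 libraries. T2 libraries ran from 1.92 (m19) over a median of 5.82 to 14.8 CPM (m21) and overlapped both other time points. The authors' tables give each of the 5 genes 1 transcript, and its counts equalled the gene's counts in 23 of 23 libraries, so no transcript choice enters these values.

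**Figure D1:**
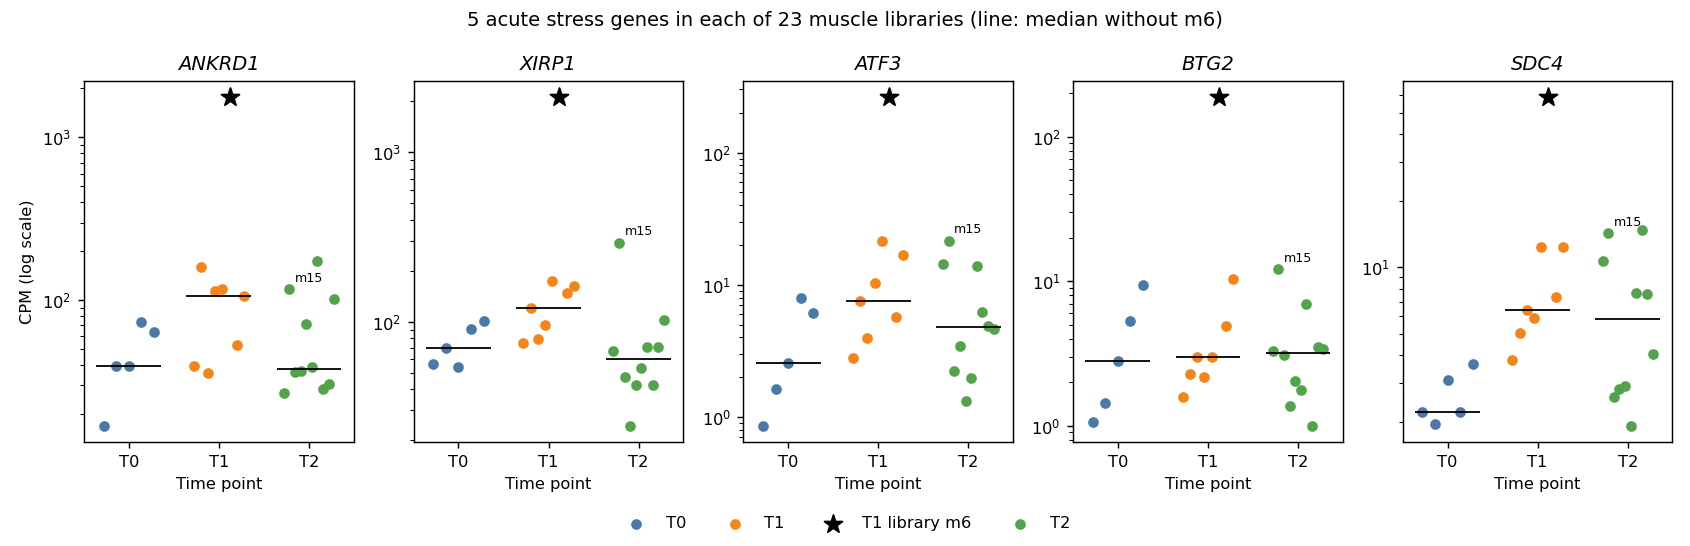
CPM of each of the 5 genes on a log axis, 1 point per library in order of library number, by time point; the star is T1 library m6, and horizontal lines are medians without it. The star lies above every other library in all 5 panels, from 3.97 times the next highest for SDC4 to 15.5 times for BTG2, and T2 library m15 is labelled.

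The 5 genes together took 4377 CPM in m6, against 458.6 in m15, the next highest, and 68.9 in m17, the lowest. Over all 11545 genes tested with 23 libraries, 594 (5.15%) had their highest value in m6 and 81 (0.702%) were at least 4-fold above the median of the other 22 libraries. By the same measure m21 had 82 such genes, m3 had 114 and m18 had 10, so the number of genes that stood out in m6 was not the largest of the libraries. The margin over the next highest library was at least 4-fold for 8 genes in m6 (0.0693%), 16 in m8, 5 in m3, 4 in m21, 2 in m9, 1 in each of m13 and m14, and 0 in the other 16 libraries. Of those 8 genes in m6, 7 have a symbol and 4 are BTG2, ATF3, ANKRD1 and XIRP1. These counts describe the pattern that the 5 genes were chosen on.

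The other 3 named genes with such a margin were ARID5B, a DNA-binding coactivator (98.5 CPM in m6, 18.6 in the next highest library), ENAH, an actin regulator of the Ena/VASP family (79.6 and 17.1 CPM), and TRIB1, a pseudokinase (46.2 and 11.4 CPM). SDC4 came just below them. The next was HBEGF, a ligand of the epidermal growth factor receptor, with 34.5 CPM in m6 and 9.33 in m15. It was followed by TNFRSF12A, the receptor for TWEAK (87.2 CPM in m6 and 26.2 in m15), KLHL40, a muscle Kelch protein (311 CPM in m6 and 94.1 in m2), and AMD1, an enzyme of polyamine synthesis (26.4 CPM in m6 and 8.03 in m16). DUSP1, a MAP kinase phosphatase, had 122.7 CPM in m6 and 40.2 in m15. EGR1, an immediate early transcription factor, had 115.4 CPM in m6, 41.9 in m14 and a median of 4.02 over the other 22 libraries. PDE4B, a cAMP phosphodiesterase, had 261.8 CPM in m6 and 103.2 in m5. Library m15 was thus the next highest for 7 of these 15 genes.

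**Figure D2:**
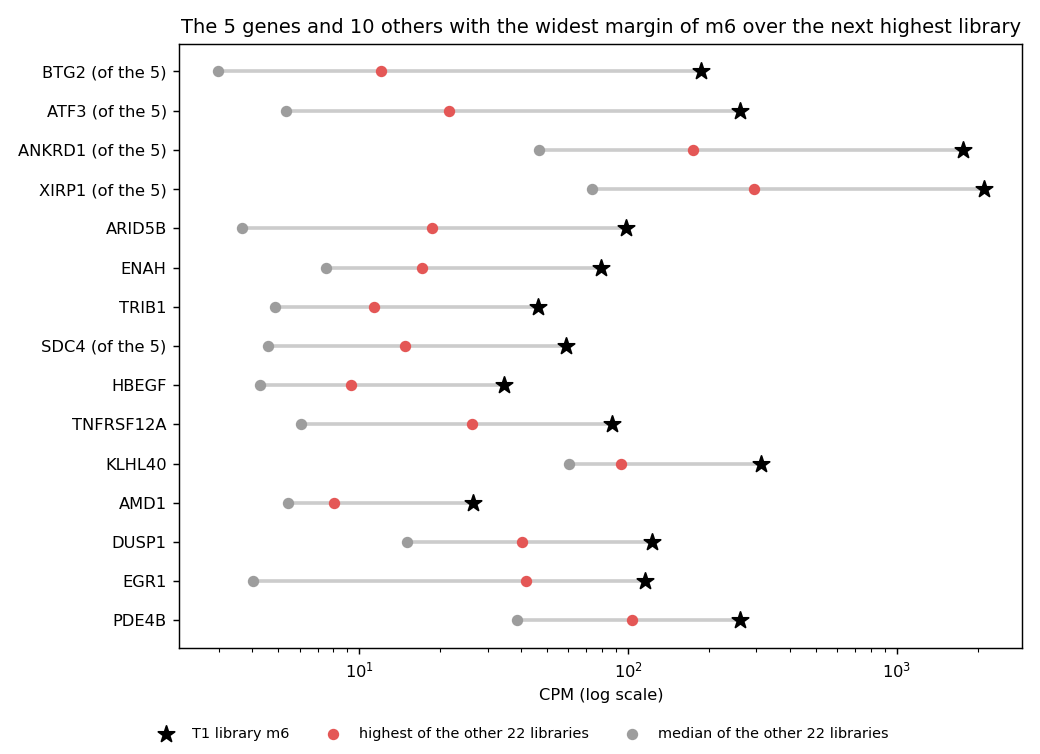
CPM on a log axis of the 5 genes and of the 10 other named genes with the widest margin in m6, ordered by that margin; the star is m6, the red point the highest of the other 22 libraries and the grey point their median. BTG2 is at the top with 186.6 CPM in m6 against 12.1 in the next library, and 3 other genes (ARID5B, ENAH and TRIB1) stand above SDC4.

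Related genes were read from lists drawn up around the roles of the 5. Of 11 measured immediate early genes, the fast transcriptional responders to a stimulus, 6 had their highest value in m6, against 5.15% of all genes tested, and the median log2 difference of m6 from the median of the other 22 libraries was 1.46, against -0.02 over all genes. The 6 were EGR1, DUSP1, JUN, KLF4, FOSL2 and RHOB. NR4A1 had 78.6 CPM in m6, below m14 with 210.3 CPM. The other 19 genes of that list, FOS and MYC among them, had no identifier with their symbol in the authors' tables and were not analysed here. Of 19 measured muscle stretch and repair genes, 12 were highest in m6, with a median log2 difference of 1.04. FLNC, the muscle filamin, had 4680 CPM in m6 and 636 to 2057 in the others, and ABRA, an actin-binding protein of the sarcomere, had 778.6 CPM in m6 and at most 562.7 in m15.

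Of 13 measured YAP and TEAD targets, 7 were highest in m6 (median log2 difference 0.62), among them the matrix protein genes CYR61, with 60.7 CPM against a median of 6.37, and CTGF, with 15.8 CPM against 3.72. Of 15 genes of the integrated stress response and growth arrest, 4 were highest in m6 (median 0.30), namely ATF4, GADD45B, PPP1R15A and PLK3, and GADD45B stands in the YAP list too. GADD45A had 2.08 CPM in m6, the lowest of all 23 libraries. Of 10 heat shock proteins 3 were highest in m6 (median 0.21), of 7 acute inflammation genes 1 (median 0.28, THBS1 with 19.2 CPM against a median of 2.13), and of 9 genes of syndecans and cell surface proteoglycans 1 (median 0.20).

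**Figure D3:**
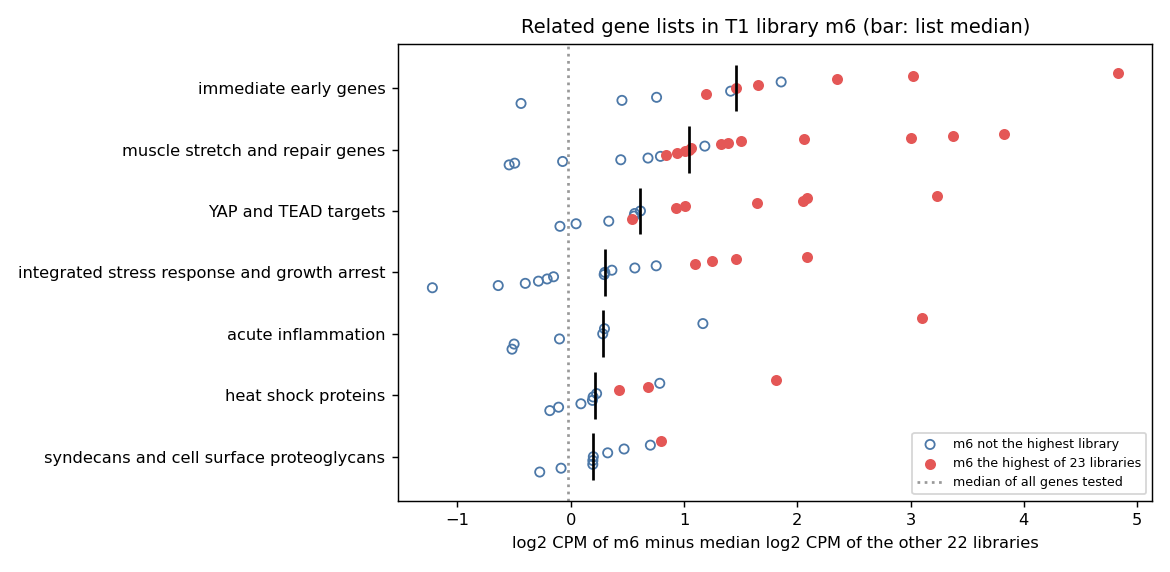
Each point is a gene of 1 of 7 related lists, placed by the log2 CPM of m6 minus the median log2 CPM of the other 22 libraries; red points are genes for which m6 is the highest of 23 libraries, bars are list medians and the dotted line is the median of all genes tested (-0.02). The immediate early list has the median farthest to the right, 1.46, and the proteoglycan list the one nearest to the dotted line, 0.20.

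Close relatives of the 5 genes stood out less. ANKRD23, a muscle ankyrin repeat protein like ANKRD1, had 585.6 CPM in m6 and 215.5 to 447.5 in the other libraries, whereas ANKRD2 had 95.8 CPM in m6, rank 7 of 23, and up to 326.7 in m3. XIRP2, the second Xin repeat protein, had 1046 CPM in m6 and 1043 in m23. ATF4, a stress-induced transcription factor that acts upstream of ATF3, had 50.4 CPM in m6 and 15.8 to 36.9 in the other libraries. Among BTG2 relatives, BTG1 had 6.54 CPM in m6 and up to 6.66 elsewhere, BTG3 had 3.89 and up to 3.93, and TOB1 had 72.5 CPM, rank 20 of 23. Neither SDC2 (4.38 CPM in m6, rank 14) nor SDC3 (2.39 CPM, rank 4) was highest in m6, and SDC1 had no identifier with that symbol.

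Between time points the 5 genes were tested without m6 by edgeR's quasi-likelihood test, with p-values adjusted by the Benjamini-Hochberg method over 11500 genes and a threshold of 0.05. None of the 5 passed in T1 relative to T0, where 6.77% of all genes passed (3.63% higher, 3.13% lower). SDC4 came nearest, at 1.52 ± 0.49 as log2 fold change with its SE (edgeR adjusted p = 0.064) and 7.58 ± 3.41 CPM in T1 (SD, n = 7) against 2.63 ± 0.721 CPM in T0 (SD, n = 5). In edgeR it alone of the 5 had an unadjusted p under 0.05. SDC4 passed in DESeq2 (adjusted p = 0.00995) but not in limma voom (adjusted p = 0.0584). An unadjusted p was also under 0.05 for ATF3 in DESeq2, and for ATF3, ANKRD1 and XIRP1 in limma voom. Their limma voom adjusted p-values were 0.0588, 0.0823 and 0.0879, so ATF3 lay about as near as SDC4 there. The T1 and T0 libraries of SDC4 did not overlap, as was the case for 3.72% of all genes (2.3% with T1 higher). ATF3 had a log2 fold change of 1.44 ± 0.73 (edgeR adjusted p = 0.262), ANKRD1 0.94 ± 0.53 (0.318), XIRP1 0.72 ± 0.45 (0.388) and BTG2 -0.02 ± 0.62 (0.992).

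For T2 relative to T1, again without m6, 0 of the 5 passed in edgeR, where 25% of all genes did, and 0 had an unadjusted p under 0.05. DESeq2 called 0 of them and limma voom called 1, XIRP1 (-0.98 ± 0.29, adjusted p = 0.0124). The edgeR log2 fold change of XIRP1 was -0.59 ± 0.37 (adjusted p = 0.257), from 81.4 ± 77.5 CPM in T2 (SD, n = 10) and 122 ± 40.1 CPM in T1 (SD, n = 7). Library m15 decided this value: without it the log2 fold change was -1.07 with an adjusted p of 0.00291. ANKRD1 (-0.43 ± 0.43), ATF3 (-0.39 ± 0.57), SDC4 (-0.12 ± 0.38) and BTG2 (0.01 ± 0.52) had edgeR adjusted p-values of at least 0.4927. All 5 genes overlapped between the groups (2.86% of all genes did not).

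SDC4 rose in T2 relative to T0, where 15.8% of all genes passed and 6.65% rose. It had 6.92 ± 4.89 CPM in T2 (SD, n = 10) and 2.63 ± 0.721 CPM in T0 (SD, n = 5), which gave 1.40 ± 0.47 as log2 fold change with its SE (edgeR adjusted p = 0.0462). It passed in DESeq2 (adjusted p = 0.00765) but not in limma voom (adjusted p = 0.123). The libraries overlapped for all 5 genes (2.67% of all genes did not), and the SDC4 call was lost in 13 of 22 fits that each left out 1 library, with adjusted p-values of up to 0.108. ATF3 had a log2 fold change of 1.05 ± 0.69 (edgeR adjusted p = 0.305), ANKRD1 0.51 ± 0.49 (0.492), XIRP1 0.13 ± 0.42 (0.854) and BTG2 -0.01 ± 0.59 (0.996). The 3 comparisons share libraries with each other.

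With m6 put back, the edgeR log2 fold changes of T1 relative to T0 became 2.68 for ANKRD1, 2.32 for XIRP1, 3.51 for ATF3, 2.79 for BTG2 and 2.41 for SDC4. Those of T2 relative to T1 became -2.17, -2.19, -2.46, -2.79 and -1.01 in the same order. In that fit SDC4 was called in T1 relative to T0 (6.91% of all genes were, 3.57% as higher), and ANKRD1, XIRP1, ATF3 and BTG2 were called in T2 relative to T1 (27.6% of all genes were, 15.1% as lower). Nothing is read from these calls, since the genes were chosen on m6. For T2 relative to T0 16% of all genes were called and 0 of the 5: the log2 fold change of SDC4 was again 1.40, while the standard error of SDC4 was 0.67 in place of 0.47 and its adjusted p 0.151. The mean level in T1 with m6 was 371 ± 704 CPM for XIRP1 and 26.7 ± 64.7 CPM for BTG2 (SD, n = 8), with an SD above the mean. DESeq2 with all 23 libraries replaced outlying counts of m6 and gave other values. For T1 relative to T0 they were 0.89 for ANKRD1, 0.67 for XIRP1, 1.31 for ATF3, -0.05 for BTG2 and 2.43 for SDC4. In T2 relative to T1 DESeq2 with m6 called 0 of the 5.

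**Figure D4:**
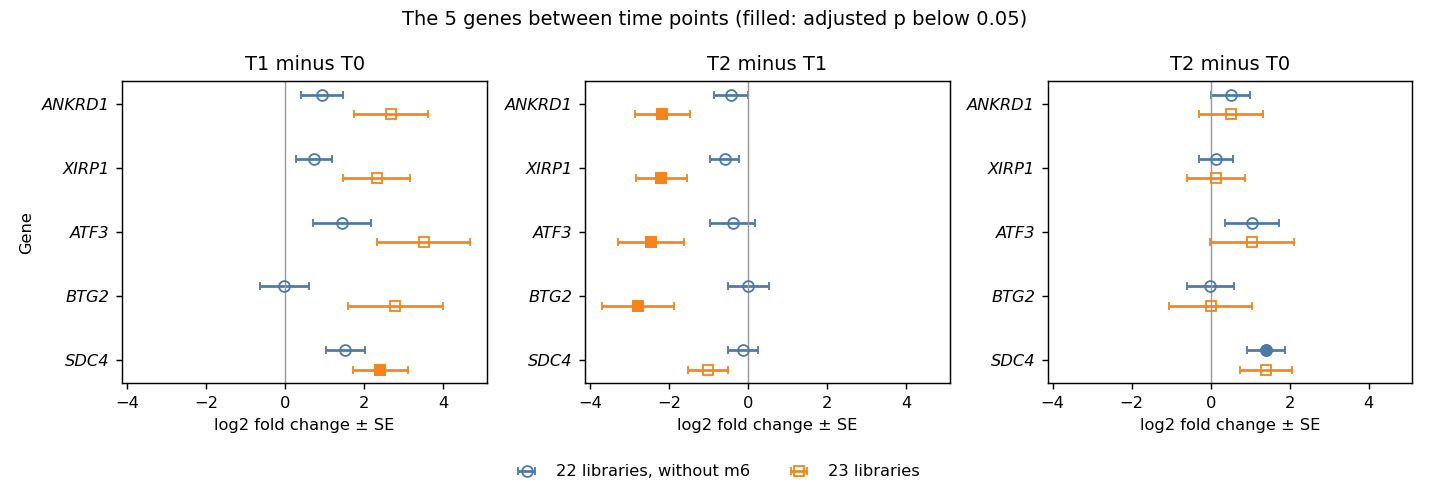
Log2 fold change ± SE of the 5 genes in the 3 comparisons, without m6 (blue circles) and with all 23 libraries (orange squares); filled symbols have an edgeR adjusted p below 0.05. With m6, 4 of 5 genes are called in T2 relative to T1, against 0 without it, and the only filled blue symbol is SDC4 in T2 relative to T0 (1.40).

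The related lists were counted against all genes tested, without m6. Of all genes, 3.63% rose and 3.13% fell in T1 relative to T0, 11.2% rose and 13.7% fell in T2 relative to T1, and 6.65% rose and 9.15% fell in T2 relative to T0. Of 11 immediate early genes, edgeR called 0 in T1 relative to T0, with 3 at an unadjusted p under 0.05 and 0 called by DESeq2 or limma voom. RHOB, a small GTPase, was the single one called in T2 relative to T1 (-0.51 ± 0.18, adjusted p = 0.0426). For T2 relative to T0 0 were called by any of the 3 tools, and 0 had an unadjusted p under 0.05. With 11 genes these counts are near the shares of all genes.

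Of 19 muscle stretch and repair genes, 5 rose and 0 fell in T1 relative to T0, against 3.63% and 3.13% of all genes (median log2 fold change 0.47, against -0.02 over all genes). Among them were ANKRD2 (2.99 ± 0.51, adjusted p = 0.00234) and the small heat shock protein CRYAB (1.22 ± 0.23, adjusted p = 0.00333). Of the same 19 genes, 0 rose and 5 fell in T2 relative to T1, where 25% of all genes were called and 13.7% fell (median -0.42, against -0.01 over all genes), so the number called was near that of all genes. Those that fell included ENAH (-0.88 ± 0.18, adjusted p = 0.00129) and ANKRD2 (-1.67 ± 0.37, adjusted p = 0.00297). Slow fibre markers moved beside both comparisons: their summed level was 8530 to 32830 CPM in T0, 30390 to 136600 CPM in the other 7 T1 and 10320 to 42880 CPM in T2 libraries. Their part in these values was not tested. In T2 relative to T0, edgeR called 1 of the 19 as higher and 2 as lower, against 6.65% and 9.15% of all genes. DESeq2 called 4 as higher and 2 as lower (1134 and 1181 of 11490 genes). Limma voom called 4 as higher and 1 as lower (1315 and 1551 of 11500 genes), so the direction of the counts differed between tools.

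Of 10 heat shock proteins, edgeR called 1 as higher in T1 relative to T0, near the 3.63% of all genes. In T2 relative to T1 edgeR called 2 as higher, against 11.2% of all genes. There DESeq2 called 6 as higher and limma voom 4, against 1521 of 11490 and 2006 of 11500 genes. An unadjusted edgeR p was under 0.05 for 7 of the 10, and for 4323 of 11500 genes. In T2 relative to T0, 5 rose in edgeR, against 6.65% of all genes (median 0.42, against -0.03 over all genes). The mitochondrial chaperone HSPD1 was at 0.62 ± 0.12 in the last comparison (adjusted p = 0.00327). Of 15 integrated stress and growth arrest genes, 3 rose in T2 relative to T1, against 11.2% of all genes, with the BTG2 relative TOB1 at 0.72 ± 0.17 (adjusted p = 0.00267). Of these 15, 1 fell in T2 relative to T0, and 0 were called in T1 relative to T0 by edgeR (3 at an unadjusted p under 0.05; 2 by DESeq2 and 1 by limma voom). Of 9 proteoglycan genes, 1 fell in T1 relative to T0, 4 fell in T2 relative to T1 and 3 fell in T2 relative to T0, against 3.13%, 13.7% and 9.15% of all genes. They included the SDC4 relatives SDC2 in T1 relative to T0 (-0.66 ± 0.19, adjusted p = 0.0382) and SDC3 in T2 relative to T0 (-0.84 ± 0.27, adjusted p = 0.0347), and the heparan sulfate enzyme NDST1 in T2 relative to T1 (-1.09 ± 0.16, adjusted p = 5.55e-05). Of 13 YAP and TEAD targets, edgeR called 1 as higher and 1 as lower in T1 relative to T0. It called 2 as lower in T2 relative to T1 and 1 in T2 relative to T0, all near the edgeR shares of all genes. In these 2 comparisons limma voom called 4 and 4 as lower (2196 and 1551 of 11500 genes). DESeq2 called 2 and 2 (1681 and 1181 of 11490 genes). In T2 relative to T0, 7 of the 13 had an unadjusted edgeR p under 0.05, as did 3700 of 11500 genes. Of 7 acute inflammation genes, 1 rose and 1 fell in T2 relative to T1 in edgeR, near the 11.2% and 13.7% of all genes. In either comparison with T0 edgeR called 0 of the 7 (2 and 1 at an unadjusted p under 0.05, for T1 and T2). There DESeq2 called 1 each, and limma voom 2 and 1.

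Most pairs of the 5 genes passed a test of correlation over the other 22 libraries. Most also passed as deviations from the mean of each time point. Few passed in the T2 or the T1 libraries alone, which are fewer. Over 10 pairs of genes, Pearson's r of log2 CPM ran from 0.31 (ANKRD1 and SDC4) to 0.80 (ATF3 and SDC4) with a median of 0.62, and 8 pairs passed a two-sided permutation test at an adjusted p below 0.05 over the 10 pairs. For ATF3 and SDC4, r was 0.80 and Spearman's rho 0.79 (both p = 1e-05, the smallest that 100000 permutations can give; adjusted p = 0.0001). XIRP1 and BTG2 followed with r = 0.68 (permutation p = 0.00047, adjusted p = 0.00235) and rho = 0.64 (p = 0.00164, adjusted p = 0.0041). XIRP1 and ATF3 had r = 0.67 (permutation adjusted p = 0.00243) and rho = 0.67 (adjusted p = 0.0031), and ATF3 and BTG2 r = 0.65 (adjusted p = 0.0028) and rho = 0.61 (adjusted p = 0.00634). The pairs that did not pass were ANKRD1 and SDC4 (permutation p = 0.157, rho = 0.25) and BTG2 and SDC4 (r = 0.40, permutation p = 0.0623, rho = 0.42). With m6 put back every r rose, to between 0.63 and 0.88.

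The 95th percentile of r with the 11544 other tested genes was 0.39 for ANKRD1, 0.57 for XIRP1, 0.36 for ATF3, 0.33 for BTG2 and 0.41 for SDC4. The median r with the other 4 genes was 0.58 for ANKRD1, 0.64 for XIRP1, 0.66 for ATF3, 0.60 for BTG2 and 0.47 for SDC4. XIRP1 and SDC4 passed over the 22 libraries, but their r of 0.53 lay below the 95th percentile for XIRP1 and above that for SDC4. As deviations from the mean of each time point, 9 of 10 pairs passed (r from 0.16 to 0.76). Within the 10 T2 libraries alone r was above 0 in all 10 pairs, and 2 pairs passed by permutation test, ATF3 with SDC4 (r = 0.85, adjusted p = 0.0156) and XIRP1 with BTG2 (r = 0.85, adjusted p = 0.0156). Within the 7 other T1 libraries r ran from 0.14 to 0.84 and 0 of 10 pairs passed an exact permutation test with adjustment, and the 5 T0 libraries are too few for a value. Without the 2 libraries farthest from the median of the first gene, 7 pairs passed. XIRP1 and SDC4 no longer passed there (r = 0.40, permutation adjusted p = 0.0976, against r = 0.53 over all 22). That pair did not pass without m15 either (r = 0.43, permutation adjusted p = 0.0615).

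**Figure D5:**
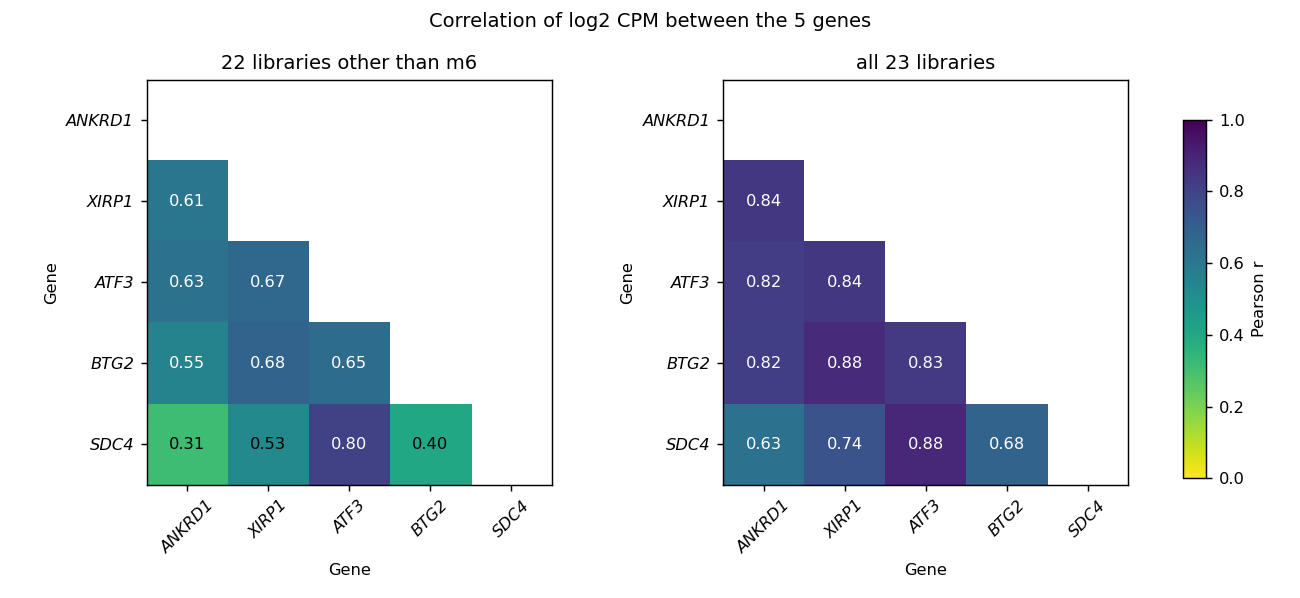
Pearson's r of log2 CPM for each pair of the 5 genes, over the 22 libraries other than m6 (left) and over all 23 (right); darker cells are higher. Without m6 the values run from 0.31 (ANKRD1 and SDC4) to 0.80 (ATF3 and SDC4), and with it from 0.63 to 0.88.

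Library by library, m15 of T2 was in the top 5 of the other 22 libraries for all 5 genes and the highest of them for XIRP1, ATF3 and BTG2. T1 libraries m5 and m11 were in the top 5 for 4 genes each, and T2 library m20 for 3. In contrast, m8, m9 and m10 of T0 and m17 and m19 of T2 were below the median for all 5. SDC4 departed from the rest in m21, where it was at its highest of the 22 (14.8 CPM) while BTG2 was at its lowest (1.001 CPM) and ANKRD1 and XIRP1 each ranked 20. XIRP1 departed in m20, where it ranked 12 while ANKRD1 was highest (174.9 CPM), BTG2 ranked 4, ATF3 5 and SDC4 6. In m14, ANKRD1 ranked 21 and XIRP1 15, while ATF3 ranked 4, SDC4 5 and BTG2 9. Library m15 had 16597688 counts and 44.8% of them from mitochondrially encoded genes, both inside the ranges of the other T2 libraries.

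Over the 22 libraries the genes most like each of the 5, by Pearson's r of log2 CPM among named genes, included other members of the group only for ATF3 and SDC4, which named each other. For ANKRD1 they were WDR47 (r = 0.67), AMOT (0.66) and SUV420H1 (0.64), and for XIRP1 they were ALPK3 (0.84), NEU3 (0.82) and CRY2 (0.82). For ATF3 they were SDC4 (0.80), ENG (0.80) and LRRC8A (0.71), and for BTG2 they were USP2 (0.78), TOB2 (0.75) and JUN (0.73). For SDC4 they included PELO (0.84) and ATF3 (0.80). In m6 these genes differed widely: WDR47 was 1.20 times, AMOT 1.17 times, USP2 1.43 times and TOB2 0.866 times the median of the others in m6, whereas JUN was 5.09 times and PELO 2.34 times. Of all tested genes, XIRP1 had r above 0.5 with 8.92%, against 1.19% for ANKRD1, 1.18% for ATF3, 0.632% for BTG2 and 2.23% for SDC4.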

How the data were processed

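Sequencing of 23 muscle RNA samples ran for 50 cycles in 6 technical repetitions, per the labels, which do not say how repetitions were combined. The submitters' processing notes name FastQC, STAR, RSEM and DESeq2. Per the file headers, the authors' gene and transcript files give expected counts, all whole numbers. The authors' deposited comparison tables give a mean normalized count (signal), a log2 fold change, its standard error and Wald statistic (scores), and a p-value. They supplied symbols and coordinates (9628 identifiers, 8842 with a symbol), and their values appear only where named.

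Genes passed filterByExpr (minimum count 10, minimum total 15). TMM scaling and edgeR 4.0.16 (robust quasi-likelihood test, R 4.3.3) were applied to the 22 libraries other than m6, with time point as the only term. The standard error was the absolute log2 fold change over the square root of F. CPM used TMM-scaled sizes of all 23 libraries, and log2 CPM a prior count of 2. Correlations used 100000 permutations, or all 5040 for 7 libraries, with NumPy 2.4.6. Alternatives were all 23 libraries, median ratio factors, no filter, DESeq2 1.42.0, limma 3.58.1 voom, sex as a covariate, 2 time points alone, and each library left out. DESeq2 with all 23 libraries and correlations without m15 were chosen after seeing the data. On simulated data of 11500 genes, 83% of 2-fold and 98% of 4-fold changes were recovered in T1 against T0. The shares were 90% and 99% in T2 against T1. They were 92% and 100% in T2 against T0. BTG2 lay below the limit, with means of 3.98 CPM in T0, 3.88 in T1 without m6 and 3.85 in T2. Recovery was not computed for ANKRD1, XIRP1, ATF3, BTG2 or SDC4 themselves.

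The 5 genes and all lists were chosen with earlier results of these data known. Named genes were the 5, the 3 most like each by r (symbol, mean log2 CPM of at least 2), the 10 others with the widest margin in m6, 10 close relatives, and up to 4 called genes of each list per comparison. Further list genes described in m6 (such as FLNC, CYR61, THBS1 and GADD45A) were chosen after their values were seen. Among the genes most like SDC4, 1 is not reported here. No sequence was used.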

Additional observations from a re-analysis of the deposited data

Results flagged for a closer look

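In T1, library m6 stood far from the other 7 libraries for each of the 5 genes. The gap between m6 and the next T1 library, divided by the range of log2 CPM over the 8 T1 libraries, was 0.749 for XIRP1, 0.615 for ANKRD1, 0.614 for BTG2, 0.573 for SDC4 and 0.555 for ATF3, each above Dixon's 95% critical value for 8 samples. The 5 genes were chosen for their level in m6, so these values restate that choice and are no test of it. In the 10 groups that the choice did not use, the 5 genes in T0 and in T2, 0 libraries exceeded the critical value, which chance does in about 1 of 20 groups.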

How the results depend on the processing

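No paired analysis was possible because the labels do not say whether animals were sampled repeatedly. Each library number, m1 to m23, occurs at a single time point and does not settle this. The number of genes called in T1 relative to T0 was 778, 1437 in limma voom, and 355 (without T0 library m10) to 924 with a library left out. For T2 relative to T0 it was 1817, 2866 in limma voom, and 910 (without m13) to 2386 with a library left out, with 1037 without m9 and 1202 without m8. For SDC4 in T1 relative to T0 the log2 fold change passed with all 23 libraries (2.41, or 2.43 in DESeq2). Nothing is read from those passes, since the genes were chosen on m6. Without m6, SDC4 passed in DESeq2 (1.54), with sex as a covariate (1.57) and with only the 2 time points (1.52). It passed in 2 of 22 fits with a library left out, without m15 (edgeR adjusted p = 0.0497) and without m19 (0.0479). Over the 22 fits it ran from 1.36 to 1.68, with edgeR adjusted p up to 0.136. Its rise in T2 relative to T0 was lost with all 23 libraries (1.40; DESeq2 1.41), without the filter (1.42), in limma voom (1.08) and with only the 2 time points (1.41), and ran from 1.21 to 1.55 with a library left out. In T2 relative to T1 SDC4 ran from -0.32 to 0.046 with a library left out. There, all 23 libraries gave calls for ANKRD1 (-2.17), XIRP1 (-2.19) and ATF3 (-2.46), from which nothing is read either. In the same comparison without m6, XIRP1 was -0.98 in limma voom and -1.07 to -0.48 with a library left out. For T2 relative to T0 XIRP1 was -0.063 in limma voom and -0.34 to 0.27 with a library left out.

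BTG2 lay near 0 and changed sign often. In T1 relative to T0 it was 2.79 with all 23 libraries, 0.47 in limma voom, 0.044 with sex as a covariate and -0.48 to 0.63 with a library left out. In T2 relative to T1 it was -2.79 with all 23 libraries, -0.0028 in DESeq2, -0.071 in limma voom and -0.38 to 0.48 with a library left out. For T2 relative to T0 it was 0.0016 with all 23 libraries, 0.0091 with median ratio factors, 0.011 without the filter, 0.40 in limma voom, 0.16 with sex as a covariate, 0.0021 with only the 2 time points and -0.40 to 0.64 with a library left out. The ratio of m6 to the other libraries, 12.8 to 62.7 by their median, was 10.1 for ANKRD1, 7.19 for XIRP1, 12.1 for ATF3, 15.5 for BTG2 and 3.97 for SDC4 by the highest of them, and 16.7 for ANKRD1 by the median of the other T1 libraries. Of 10 pairs, 2 passed within T2 and 0 within T1. These fits hold fewer libraries, and other causes were not tested. ATF3, BTG2 and SDC4 rested on as few as 17 counts per library outside m6, which limits their precision.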

Other observations

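Among the authors' deposited tables, that for T2 and T1 holds mean normalized counts of the 5 genes near those of the libraries without m6. The tables name groups by letter, and each was matched to the pair of time points with which its log2 fold changes correlated best over all genes (r = 0.978 for T2 and T1, 0.959 for T1 and T0, 0.985 for T2 and T0). For T2 and T1 the authors' deposited table gives a mean of 1258.39 for ANKRD1, against 2863 computed from all libraries of both time points and 1269 without m6. For BTG2 the authors' deposited table gives 63.83, against 237.6 with m6 and 64.8 without it, and for SDC4 119.75, against 169.2 and 120.6. For T1 and T0 the deposited means of the 5 genes lie below those with m6 and slightly above those without it, and nearer to the latter. Over all 9615 genes of that comparison, the deposited mean differed from the one computed with m6 by a median of 0.1035 in log2, as an absolute value. The small excess over the means without m6 is therefore not read as a part of m6. ANKRD1 has 1280.52 there, against 3406 with m6 and 1193 without it, and SDC4 98.87, against 161.7 and 92.15. In a DESeq2 fit of all 23 libraries, the default replacement of outlying counts set the count of m6 to 1433 in place of 39836 for ANKRD1, 1864 in place of 47740 for XIRP1, 142 in place of 5903 for ATF3 and 72 in place of 4221 for BTG2, and left the 1324 counts of SDC4 as they were. That fit replaced the m6 value of 12 genes, the most of any library, with 10 in m21 next. In the authors' deposited table for T1 and T0, SDC4 has a log2 fold change of 1.17 with a standard error of 0.22 and an adjusted p of 1.39e-05, and XIRP1 0.59 with a standard error of 0.20 and an adjusted p of 0.0278. For T2 and T1, the deposited mean of 9216 of 9628 genes lay within 1% of the mean computed with m6 included. The same match without m6 was not computed. For T1 and T0 this held for 0 of 9615 genes and for T2 and T0 for 0 of 9619, so those means were not reproduced here. The labels do not say how m6 was treated in the deposited tables.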
